A study of Mus musculus with 60 samples.

Results

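Expression of 7 tight junction genes was followed across 60 mouse skin carcinomas. The genes are Cldn1, Cldn4 and Cldn7 (claudins), Ocln (occludin), Marveld2 (tricellulin), F11r (junctional adhesion molecule A) and Tjp1 (ZO-1). They were taken by name, as the 12 of 45101 probe sets on the array whose only gene symbol was one of these, and they are 7 of 18194 genes with a probe set of their own. Each gene is represented below by its probe set of highest mean over the 60 arrays. The filter on low values, which asked for 8 or more arrays above their own median, was passed by all 7 and left 12791 genes to be tested.

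The tumors arose on the back skin of 55 FVBBX mice after application of dimethyl benzanthracene (DMBA), a carcinogen, and tetradecanoyl-phorbol acetate (TPA), a tumor promoter. FVBBX mice are the offspring of SPRET/Ei (Mus spretus) by FVB/N hybrids mated again to FVB/N, so each animal carries its own mixture of the parental alleles. All groups share this cross and this treatment, both sexes are present, and neither untreated skin nor papillomas are compared here. The labels also give a coat color, agouti or white, and an origin of the mouse within the cross, F1BSF1 to F1BSF4, without an explanation. Origin was not balanced between the histologies, with F1BSF4 a larger share of the SCC mice and F1BSF1 a larger share of the spindle mice. Total RNA of each carcinoma was hybridised to 1 Affymetrix array, and 5 mice gave 2 carcinomas each. The histology labels give 14 spindle cell carcinomas from 13 mice and 38 squamous cell carcinomas (SCCs) from 35 mice, and 8 carcinomas from 7 mice have no histology label. By grade, the SCC mice comprised 13 with well, 13 with moderately and 9 with poorly differentiated tumors, whereas 12 of the 13 spindle mice had poorly differentiated tumors and 1 had a moderately differentiated one. A p53 mutation was labelled in 14 mice (4 spindle, 8 SCC and 2 without histology) and not in 41. Lymph nodes were labelled positive in 15 mice (4 spindle, 10 SCC, 1 without histology) and negative in 19 (5 spindle, 14 SCC), and the nodal label was not given for 21. A further label, tumor_class, holds the values 1 and 2 without an explanation. It is used below to describe the arrays and to choose the SCC mice over which correlations are mainly described.

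Tight junctions close the space between neighboring epithelial cells near their apical side. Claudins form the paired strands that set permeability, occludin and tricellulin belong to the MARVEL family of membrane proteins in those strands, junctional adhesion molecules stabilise the contact, and ZO-1 links them to actin. In skin the functional junctions lie in the granular layer, and mice that lack claudin-1 lose water through the epidermis. Spindle cell carcinomas are the mesenchymal-like, highly malignant form of tumor in this mouse model, while SCCs keep an epithelial organization. Repressors of the Snail and Zeb families bind the E-box CAGGTG, and Snail is known to repress claudin and occludin genes in mouse epithelial cells.

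Promoter windows, from 250 bases before to 50 bases after a transcription start, were available from RefSeq (build GRCm38.p6) for all 7 genes, as 10 windows. The windows of Cldn4, Cldn7, Ocln and F11r are shown because these genes had the largest differences between the histologies, and that of Tjp1 because it has no E-box match and the smallest difference. Not shown are Cldn1, without a match and with a log2 difference of -0.74, and Marveld2, with a match and a difference of -0.89. A link between matches and differences was not tested. Capitals mark CAGGTG or its other strand CACCTG, and each sequence runs 5′ to 3′ on the strand of its gene. The positions are chr5:134946885-134947184 on the minus strand for Cldn4, chr11:69965171-69965470 on the plus strand for Cldn7, chr13:100552449-100552748 on the minus strand for Ocln, chr1:171437311-171437610 on the plus strand for F11r and chr7:65371195-65371494 on the minus strand for Tjp1.
Cldn4: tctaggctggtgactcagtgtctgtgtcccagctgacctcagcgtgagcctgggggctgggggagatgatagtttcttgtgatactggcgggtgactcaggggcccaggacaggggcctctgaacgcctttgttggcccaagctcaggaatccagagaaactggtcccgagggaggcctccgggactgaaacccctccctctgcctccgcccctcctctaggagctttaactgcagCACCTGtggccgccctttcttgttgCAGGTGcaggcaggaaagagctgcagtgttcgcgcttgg
Cldn7: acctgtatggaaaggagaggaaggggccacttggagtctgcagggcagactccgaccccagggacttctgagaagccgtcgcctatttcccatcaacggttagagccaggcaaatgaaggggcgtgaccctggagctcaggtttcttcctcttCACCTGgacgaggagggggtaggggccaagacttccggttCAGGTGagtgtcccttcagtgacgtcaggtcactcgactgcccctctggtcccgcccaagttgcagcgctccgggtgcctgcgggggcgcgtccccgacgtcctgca
Ocln: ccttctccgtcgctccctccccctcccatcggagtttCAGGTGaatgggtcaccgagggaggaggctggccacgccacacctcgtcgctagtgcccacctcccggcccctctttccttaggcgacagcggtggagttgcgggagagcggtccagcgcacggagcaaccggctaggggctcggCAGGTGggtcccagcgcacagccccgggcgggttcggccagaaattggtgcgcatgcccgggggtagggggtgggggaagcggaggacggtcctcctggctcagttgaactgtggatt
F11r: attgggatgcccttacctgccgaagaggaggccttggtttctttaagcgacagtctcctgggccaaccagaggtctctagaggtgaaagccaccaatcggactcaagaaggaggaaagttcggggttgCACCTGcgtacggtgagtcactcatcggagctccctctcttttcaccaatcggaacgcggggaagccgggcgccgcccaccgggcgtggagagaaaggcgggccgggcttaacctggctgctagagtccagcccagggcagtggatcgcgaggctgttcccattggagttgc
Tjp1: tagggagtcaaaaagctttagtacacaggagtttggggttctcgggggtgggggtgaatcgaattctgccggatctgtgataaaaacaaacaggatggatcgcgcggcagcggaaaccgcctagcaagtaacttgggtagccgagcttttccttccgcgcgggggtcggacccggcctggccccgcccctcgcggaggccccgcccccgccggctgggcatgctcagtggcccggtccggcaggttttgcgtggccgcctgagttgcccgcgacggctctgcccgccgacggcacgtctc

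The E-box was present in 7 of the 10 windows, against 20.2% of 32851 windows of the same length over all genes. The windows of Ocln overlap and share a match, as do those of Marveld2, so the 10 are not independent. By gene the E-box was in 5 of the 7, and the share by gene over all genes was not computed. The 3 windows without an E-box were those of Cldn1 and Tjp1 and a second, upstream start of Cldn7. Cldn4 has a match 14 bases before and another 11 bases after its start, Cldn7 has matches 97 and 57 bases before, and Ocln has matches 213 and 68 bases before the start shown, the first of which also lies 7 bases after another listed start of Ocln. F11r has a single match 122 bases before its start. Marveld2 has a single match, 16 or 43 bases after the start depending on which of its starts is taken. The AP-1 motif TGACTCA (other strand TGAGTCA) was found in 2 windows, with 2 copies in Cldn4 and 1 in F11r, against 5.2% of all windows with at least 1 copy. The GC box (GGGCGG, or CCGCCC on the other strand) was in 9 of the 10 windows, against 35.7% of all windows, and the Grainyhead-type motif AACCNGTT (AACNGGTT) was in 0 of the 10, against 2.09%. No pair of these motifs shared bases in a member's window. A match describes the letters only, and binding was not measured.

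The values are log2 expression from robust multi-array averaging (RMA), and each array's median over all probe sets lay between 4.43 and 4.56. Tumors of 1 mouse were averaged, so n counts mice, and groups were compared with limma over all 12791 genes with the Benjamini-Hochberg adjusted p of 0.05 as the threshold. Sex markers on 9 arrays went against the labelled sex or showed both sexes, among them SCC 5, 10, 20, 24, 25 and 31 and spindle 8 and 13. The most alike arrays of different mice were SCC 18 with an array without histology (r = 0.991 over all probe sets) and SCC 21 with SCC 22 (r = 0.988). The main result is given below with and without these arrays. RNA quality, taken as how far the 3′ Gapdh control probe set exceeded the 5′ one on the log2 scale, had a median of 0.0836 in spindle arrays and 0.0690 in SCC arrays.

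All 7 genes averaged lower in spindle carcinomas than in SCCs, and 6 of them passed the test. Cldn4, Cldn7, Ocln, F11r, Marveld2 and Tjp1 fell, with differences between -2.28 and -0.62 on the log2 scale, while the difference of Cldn1 did not pass. With every tumor kept and the mouse as a random effect 4 of the 7 passed, since Cldn7 and Marveld2 lost their calls. In the same fit 11% of all genes tested were called lower in spindle carcinomas and 26.5% were called in either direction. The median difference was -1.45 over the 7 genes, against 0.02 over all genes, and 45.8% of all genes had a difference below 0.

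Cldn4, a claudin best known from simple epithelia, showed the greatest difference of the 7. Its log2 values ran from 4.57 to 10.92 with a median of 5.32 over the 13 spindle mice, against 4.66 to 11.37 with a median of 9.82 over the 35 SCC mice. The spindle mice lay in separate sets, with 7 mice between 4.57 and 5.32, 2 mice at 7.53 and 7.55, and 4 mice between 9.77 and 10.92. The value 7.53 is the mean of 2 tumors of 1 mouse, at 4.52 and 10.54, neither of which lies between the outer sets. Among SCC mice 3 lay in the range of the low spindle set or just above it, at 4.66, 4.85 and 5.53, so the groups overlapped over nearly their whole range. Of the 13 spindle mice, 10 were below the SCC median. Spindle carcinomas averaged 6.99 ± 2.53 and SCCs 9.27 ± 1.72 (SD, n = 13 and 35 mice), a difference of -2.28 (SE 0.62, limma adjusted p = 0.00517), or 4.86-fold lower in spindle carcinomas.

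Cldn7, a claudin found along basolateral as well as apical membranes, fell by 1.92 on the log2 scale (SE 0.64, limma adjusted p = 0.0211). With every tumor kept and the mouse as a random effect it differed by -1.74 and did not pass (adjusted p = 0.0542). Its values ran from 3.42 to 8.11 with a median of 4.28 in spindle mice, against 3.39 to 10.13 with a median of 7.78 in SCC mice. A total of 12 of the 13 spindle mice were below the SCC median, although none was below the lowest SCC. The probe set was at or under the array median on 8 of 14 spindle arrays and on 9 of 38 SCC arrays, so that part of its range lies near the background of the array and the size of its difference is uncertain.

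Cldn1, the claudin that the epidermal barrier of mice requires, averaged 6.63 ± 0.92 in spindle carcinomas and 7.37 ± 1.21 in SCCs (SD, n = 13 and 35). The difference of -0.74 (SE 0.36, 95% interval -1.47 to -0.02) did not pass (limma adjusted p = 0.124). Its lowest value of all, 3.16, belonged to an SCC, number 24, a tumor labelled well differentiated and 1 of those with sex markers against the label. Without SCC 24 the difference was -0.86 and passed (adjusted p = 0.0280). Separately, the other Cldn1 probe set above the array median gave -0.86 with an adjusted p of 0.124 over all 45101 probe sets, of which 12.1% were called.

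Ocln, the MARVEL protein found along the whole junction strand, had values from 3.11 to 7.25 with a median of 4.24 in spindle mice, against 2.89 to 8.75 with a median of 6.90 in SCC mice. Of the 13 spindle mice 12 were below the SCC median and 10 below the lower quartile of the SCC mice. Ocln fell by 1.89 on the log2 scale in spindle carcinomas (SE 0.47, limma adjusted p = 0.00247), which is 3.72-fold. It was under the array median on 8 of 14 spindle arrays and on 7 of 38 SCC arrays. Its second probe set, which had a lower mean, gave -0.54 (adjusted p = 0.130).

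Marveld2, the protein that seals the corners where 3 cells meet, lies next to Ocln on chromosome 13 with 0 protein-coding genes between them. It had values from 3.17 to 6.09 with a median of 4.21 in spindle mice, against 3.53 to 7.16 with a median of 5.62 in SCC mice. Marveld2 fell by 0.89 on the log2 scale (SE 0.34, limma adjusted p = 0.0458), close to the threshold. The test was lost with no filter on low values (adjusted p = 0.0617), with every tumor kept (0.101), after quantile normalization of the gene table (0.0663), with the p53 label (0.0518) or the origin of the mouse (0.0529) as a covariate, and over every probe set (0.0795). This probe set was under the array median on 9 of 14 spindle arrays and 11 of 38 SCC arrays.

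F11r, an immunoglobulin-like adhesion molecule that recruits the polarity protein Par3, gave the smallest adjusted p of the 7. Its values ran from 6.11 to 10.56 with a median of 8.00 in spindle mice, against 7.61 to 11.18 with a median of 10.15 in SCC mice. Here 4 of the 13 spindle mice were below every SCC mouse. F11r fell by 1.45 on the log2 scale (SE 0.32, limma adjusted p = 0.000962), or 2.74-fold, and this probe set was above the array median on all 60 arrays. Its second probe set was above the array median on only 7 arrays and so did not pass the filter. That probe set gave -0.058 (limma adjusted p = 0.766 over all 45101 probe sets). With the probe sets of each gene averaged, F11r differed by -0.76 and still passed (limma adjusted p = 0.00149).

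Tjp1, the scaffold that binds claudins, occludin and junctional adhesion molecules on the inner side of the membrane, changed least among the genes that passed. It ran from 8.27 to 10.17 with a median of 9.22 in spindle mice, against 8.53 to 10.79 with a median of 9.96 in SCC mice. Tjp1 fell by 0.62 on the log2 scale (SE 0.17, limma adjusted p = 0.00440), which is 1.54-fold, and 12 of 13 spindle mice were below the SCC median. Several membrane proteins fell by more than this scaffold. Subtracting Tjp1 within each mouse left a spindle minus SCC difference of -1.66 for Cldn4 (95% interval -2.72 to -0.60), -1.29 for Cldn7 (-2.43 to -0.16), -1.27 for Ocln (-2.02 to -0.52) and -0.83 for F11r (-1.35 to -0.31). For Cldn1 it left -0.12 (-0.71 to 0.48) and for Marveld2 -0.27 (-0.79 to 0.25), intervals that include 0.

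**Figure D1:**
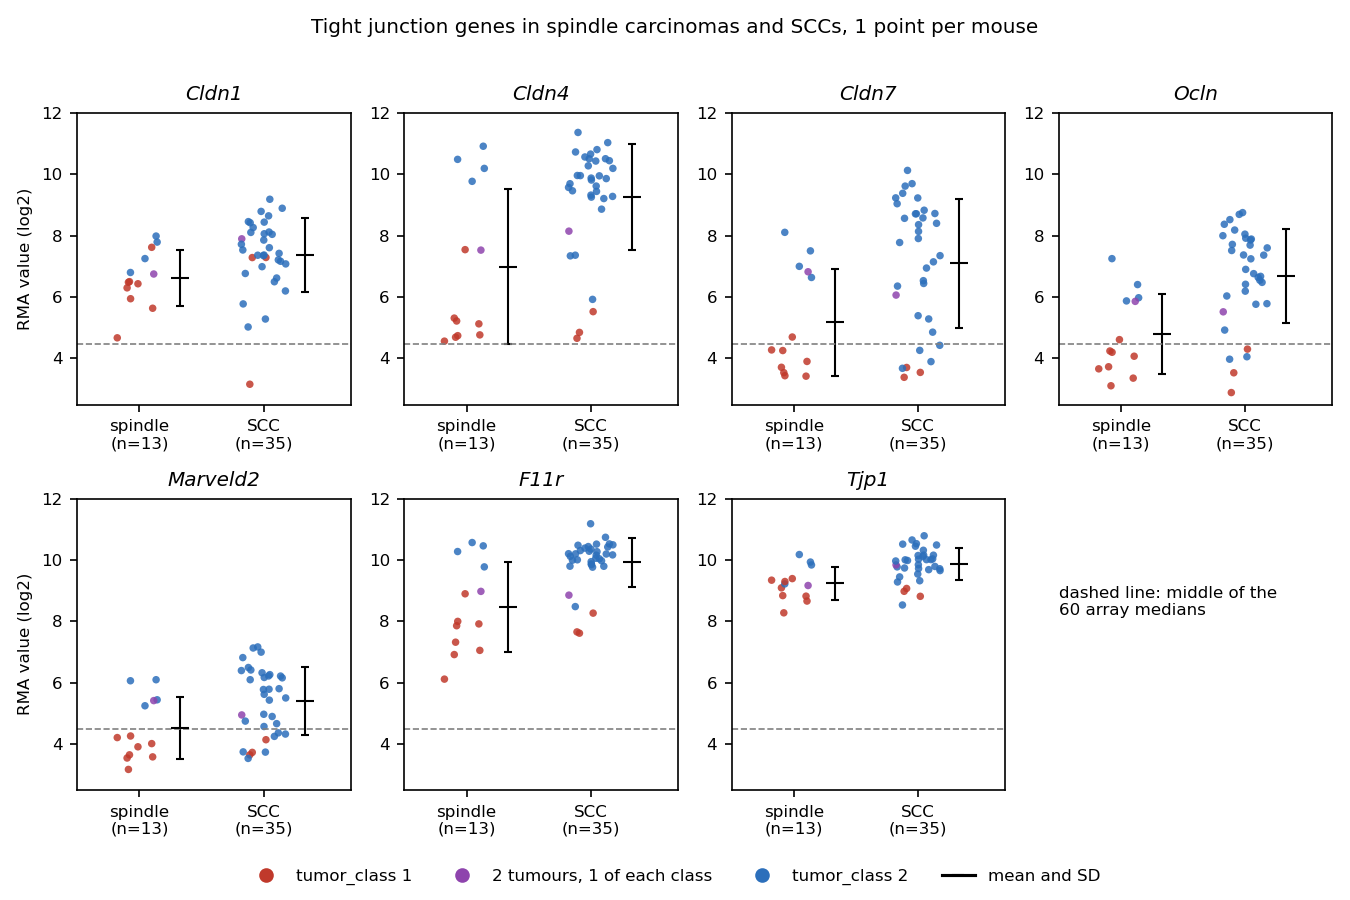
Log2 RMA value of each of the 7 genes, 1 point per mouse, with spindle mice on the left and SCC mice on the right of each panel. Black marks give the mean and SD, colors give the tumor_class label, and the dashed line is the middle of the array medians. Cldn4 divides the spindle mice into a low set of 7 between 4.57 and 5.32 and a high set of 4 between 9.77 and 10.92, whereas Tjp1 stays between 8.27 and 10.79 in both groups.

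Without the arrays whose sex markers went against the label, which left 41 mice, Cldn4 differed by -1.84 (adjusted p = 0.0399), Ocln by -1.53 (0.0229), F11r by -1.28 (0.00740) and Tjp1 by -0.56 (0.0170). In that fit Cldn7 differed by -1.35 (adjusted p = 0.157) and Marveld2 by -0.60 (0.280), and neither passed. Without the 4 most alike arrays of different mice the same 6 genes passed, with Cldn4 at -2.50 and F11r at -1.54. When only the 9 mice with poorly differentiated SCC were set against the 13 spindle mice, Cldn4 still differed by -2.24, Cldn7 by -1.67, Ocln by -1.36 and F11r by -1.25, but none of the 7 passed (lowest adjusted p = 0.226 for Ocln), and 0 of the 12791 genes did by limma, with 2293 at an unadjusted p under 0.05. Because 12 of 13 spindle mice carry the poor grade, histology and grade cannot be fully told apart here.

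Markers of other cell types moved between the same groups. Of 11 keratinocyte markers tested, 9 were called lower in spindle carcinomas, and the mean of the list ran from 5.69 to 11.70 (median 9.13) in spindle mice, against 4.63 to 11.90 (median 11.27) in SCC mice. Set against that mean within each mouse, Cldn4 differed by -0.57 (95% interval -1.48 to 0.35), Cldn7 by -0.20 (-1.36 to 0.96), Ocln by -0.18 (-0.98 to 0.63) and F11r by 0.26 (-0.37 to 0.90). Tjp1 (1.09, 0.31 to 1.87), Cldn1 (0.98, 0.15 to 1.80) and Marveld2 (0.82, 0.02 to 1.63) were higher relative to the keratinocyte mean in spindle carcinomas. Marveld2 was at or under the array median on 9 of 14 spindle arrays, and Cldn7 and Ocln on 8 of 14 each. The size of these 3 relative differences is therefore uncertain. Of 8 macrophage markers 2 were called higher, and of 8 fibroblast markers 2 were called higher and 1 lower, with fibroblast means of 9.91 to 12.05 in spindle mice and 9.61 to 12.44 in SCC mice. Of 7 neutrophil markers 4 were called lower, with means of 6.68 to 9.92 in spindle mice and 7.25 to 9.97 in SCC mice, and so were 2 of 4 adipocyte markers, while striated muscle, endothelial, mast cell and B and plasma cell lists had no marker called. Of 4 simple epithelium markers 2 were called lower and 1 higher, with list means of 7.85 ± 1.05 in spindle mice and 8.86 ± 1.34 in SCC mice. Among T and NK cell markers 1 of 5 was called lower, and among melanocyte markers 1 of 3 was called higher. In tumor pieces such as these, fewer epithelial cells and less RNA per epithelial cell cannot be told apart, and the part of the cell mixture in the fall of the tight junction genes was not tested.

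The arrays of both histologies separated by the tumor_class label. In spindle carcinomas 9 arrays carried tumor_class 1 and 5 carried tumor_class 2, whereas among SCCs 5 arrays carried tumor_class 1 and 33 tumor_class 2. The 5 spindle arrays of tumor_class 2 (spindle 1, 2, 5, 6 and 9) had Cldn4 at 9.77, 10.19, 10.49, 10.92 and 10.54, within the range of SCC arrays. Conversely, the 5 SCC arrays of tumor_class 1 (SCC 3, 4, 21, 22 and 24) had Cldn4 at 4.21, 6.84, 4.85, 5.01 and 4.66. The 9 spindle arrays of tumor_class 1 ran from 4.52 to 7.55 with a median of 4.77, so 4 of these 5 SCC values lay within their range and SCC 3 lay below it.

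The other members also had lower medians in tumor_class 1 arrays of both histologies, although the ranges of the classes could overlap. Cldn7 did not exceed 4.70 on any of the 9 spindle arrays of tumor_class 1 nor 3.87 on the 5 SCC arrays of tumor_class 1, whereas it ran from 6.64 to 10.24 on the spindle arrays of tumor_class 2 and from 3.68 to 10.13 (median 8.14) on the SCC arrays of tumor_class 2. Ocln had medians of 3.73 in spindle and 3.56 in SCC arrays of tumor_class 1, and of 6.41 in spindle and 7.37 in SCC arrays of tumor_class 2. For F11r the medians were 7.75 in spindle and 7.65 in SCC arrays of tumor_class 1, and 10.27 in spindle and 10.19 in SCC arrays of tumor_class 2. Tjp1 averaged 8.96 ± 0.36 (spindle) and 9.00 ± 0.25 (SCC) in tumor_class 1 and 9.70 ± 0.40 (spindle) and 9.97 ± 0.46 (SCC) in tumor_class 2. In SCCs the classes overlapped for Cldn1, where 4 of the 5 tumor_class 1 arrays lay between 6.40 and 8.18, inside the range of 5.03 to 9.19 of tumor_class 2. All 5 lay inside the tumor_class 2 range for Marveld2 (3.65 to 4.41, within 3.53 to 7.16) and for Tjp1 (8.64 to 9.34, within 8.53 to 10.79). The sets touch: SCC 38, of tumor_class 2, had Cldn4 at 5.93 and Ocln at 4.06. How the label was assigned is not given in the sources used here, so these values are a description without a test. The keratinocyte list also divided, with medians of 8.16 in spindle and 8.88 in SCC arrays of tumor_class 1 and 11.24 in spindle and 11.28 in SCC arrays of tumor_class 2.

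**Figure D2:**
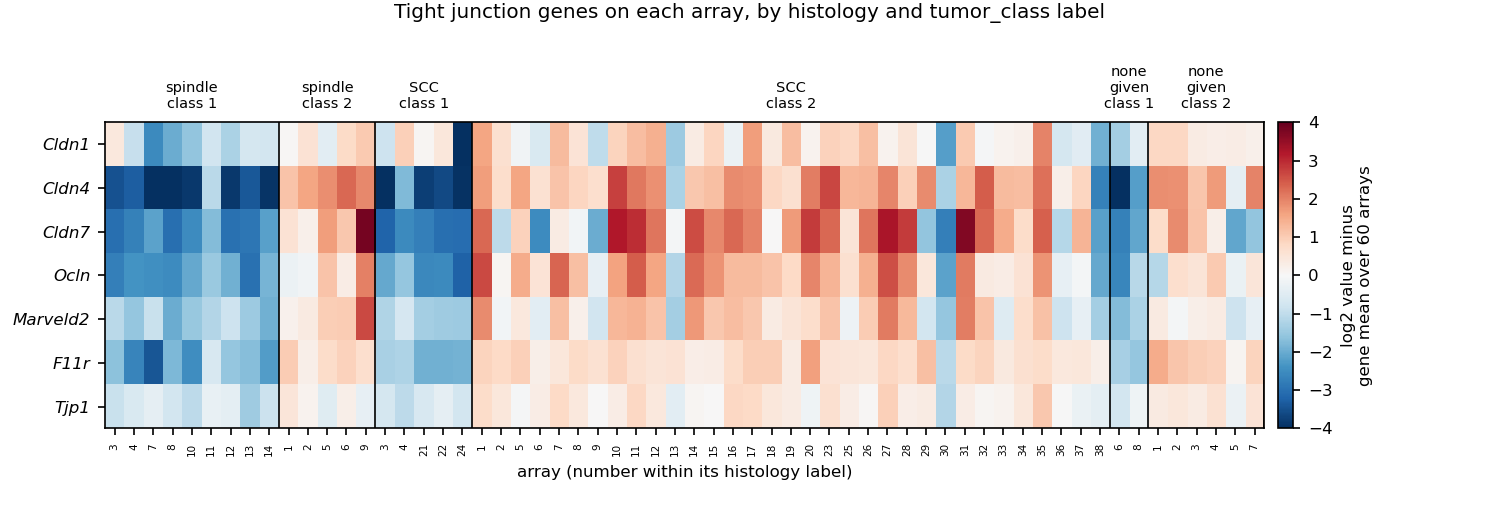
Log2 value of each gene on each of the 60 arrays after subtraction of the gene's mean over all arrays, with arrays grouped by histology and tumor_class label (blue lower, red higher). The 9 spindle and 5 SCC arrays of tumor_class 1 are blue for Cldn4, Cldn7, Ocln, Marveld2 and F11r, and the 5 spindle arrays of tumor_class 2 resemble SCC arrays.

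Carcinomas of 1 animal could differ as widely as the groups. In the mouse that gave 2 spindle carcinomas, Cldn4 was 4.52 in 1 tumor and 10.54 in the other, Cldn7 3.41 and 10.24, Ocln 3.59 and 8.13, and F11r 7.75 and 10.20, while Tjp1 was 8.98 and 9.35. The first of these is an array with signal of both sexes, and the other has neither sex's signal and a high Gapdh 3′ minus 5′ difference of 0.543. A mouse with 2 SCCs (22 and 23) had Cldn4 at 5.01 and 11.29 and F11r at 7.61 and 10.09, but Cldn1 at 7.66 and 8.14. Its SCC 22 is 1 of the most alike arrays of different mice (r = 0.988 with SCC 21 over all probe sets). The SCC pair of another mouse (7 and 8), both of tumor_class 2, differed by 0.258 for Cldn4 and 0.334 for F11r. Both of these mice with wide differences had 1 tumor of each class. In the mouse with SCC 3 and SCC 4, both of tumor_class 1, Cldn4 was 4.21 and 6.84 and Cldn1 was 6.40 and 8.18.

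Within SCCs the genes varied together. Because the mice fall into separate sets, correlations are described mainly over the 31 SCC mice whose tumors all carry tumor_class 2. These mice share the array platform and normalization and differ in cell mixture. Pearson's r between members was also computed over all 35 SCC mice (0.49 to 0.91) and over the 13 spindle mice (0.40 to 0.97). Over the 31 mice the 21 pairs of members had Pearson's r from 0.41 to 0.91 with a median of 0.68, and by r all 21 passed after adjustment. By Spearman's rho, Cldn1 with F11r and Cldn7 with Tjp1 (rho = 0.35, adjusted permutation p = 0.0584) did not pass. The share of pairs that would pass among all genes was not computed. Whether the 7 genes vary together more than other genes was therefore not tested. Neighbors on the chromosome, Ocln and Marveld2 had the highest value (r = 0.91, Spearman's rho = 0.89, permutation p = 1e-05 for each, the smallest that 100000 permutations can give, with adjusted p of 2.33e-05 and 7e-05). Cldn7 with Marveld2 followed (r = 0.87, rho = 0.90). Without the 2 mice farthest from the median of the first gene of the pair, Ocln or Cldn7, r was 0.89 and 0.86. In these 31 mice F11r was least tied to the rest, with r = 0.44 with Cldn1 (rho = 0.27, permutation p = 0.0157 for r and 0.148 for rho, adjusted p of 0.0165 and 0.148). That r dropped to 0.07 without the 2 mice farthest from the Cldn1 median and so rests on them. Such a removal, in which the mice depend on the pair, left r = 0.16 for F11r with Cldn7, 0.22 with Ocln, 0.23 with Tjp1 and 0.27 with Marveld2. It left 0.75 with Cldn4, but there SCC 30, with F11r at 8.48, was not among the removed mice as it was in the other pairs. The value for Cldn4 is therefore not comparable with the others. Over the 13 spindle mice F11r had r = 0.76 with Cldn1 and 0.94 with Cldn4, and over all 35 SCC mice 0.49 and 0.86.

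Among all other genes tested, those most alike to each member over the SCC mice included further junction genes. Patj, a scaffold of the Crumbs polarity complex, had the highest r with F11r over the 35 SCC mice (0.94) and remained among its 3 highest over the 31 mice of tumor_class 2 (0.79). Pard6b, a Par polarity complex member, had the highest r with Tjp1 over 35 mice (0.85) and was among its 3 highest over 31 (0.80), and Cgn, the plaque protein cingulin, was among the 3 highest for Marveld2 (0.82 and 0.80). Mal2, a membrane protein of apical transcytosis, was first for Ocln (0.94 and 0.91) and for Marveld2 (0.85 and 0.82). The gene most like Cldn4 over 35 mice was Aldh1a3, a retinaldehyde dehydrogenase (0.93, and 0.83 over 31). Wfdc2 was most like Cldn7 (0.87 and 0.91) and Lmo7 was most like Cldn1 over 35 mice (0.82) and among its 3 highest over 31 (0.84). These are the highest among all genes tested and are given as a description without a test.

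Other tight junction and polarity genes divided between the directions. Of 44 further genes tested from 61 listed, 18 were called lower in spindle carcinomas and 7 higher (15.5% of all genes were called higher), and 19 did not pass, with a median difference of -0.29. Of 8 other claudins, Cldn8 fell by 2.14 on the log2 scale (SE 0.68, limma adjusted p = 0.0160) and Cldn23, an epidermal claudin, fell by 1.23 (SE 0.36, adjusted p = 0.00873), and 6 did not pass. Cldn3 is the direct neighbor of Cldn4 on chromosome 5, with 0 protein-coding genes between them. It differed by -0.66 (SE 0.42, adjusted p = 0.247), averaging 6.52 ± 1.27 in spindle carcinomas and 7.18 ± 1.34 in SCCs.

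Of 10 other junctional membrane proteins 4 were lower and 2 higher. Marveld3, the remaining MARVEL protein of the junction, fell by 1.31 (SE 0.45, adjusted p = 0.0249). Lsr (angulin-1), which brings tricellulin to cell corners, fell by 1.37 (SE 0.36, adjusted p = 0.00358), and Cxadr, the coxsackievirus and adenovirus receptor, fell by 0.67 (adjusted p = 0.0288). Igsf5, a junctional adhesion molecule relative, rose by 1.83 on the log2 scale (SE 0.40, adjusted p = 0.000881).

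Among 14 plaque and scaffold genes 4 were lower and 4 higher. Patj fell by 1.35 (SE 0.37, adjusted p = 0.00515) and Magi3, a membrane-associated guanylate kinase, fell by 0.88 (adjusted p = 0.0307). Mpdz (MUPP1), a multi-PDZ scaffold related to Patj, rose by 1.33 (SE 0.25, adjusted p = 0.000292), and Amot (angiomotin), a Hippo pathway scaffold that endothelial cells also express, rose by 2.26 (SE 0.47, adjusted p = 0.000603). Tjp3 (ZO-3) differed by -0.83 without passing (adjusted p = 0.0612).

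Of 12 genes of the polarity complexes 8 were lower and 1 higher. Pard6b fell by 1.60 (SE 0.34, adjusted p = 0.000728), Llgl2, an epithelial Lgl protein, fell by 1.19 (SE 0.26, adjusted p = 0.000796), Pard3, a scaffold of the Par complex, fell by 0.86 (adjusted p = 0.00845) and Crb3, the Crumbs protein of epithelia, fell by 0.82 (adjusted p = 0.00170). With only poorly differentiated SCCs as the comparison, 0 of the 44 genes passed. Without the arrays whose sex markers went against the label, 14 passed in place of 25, while the calls over all 12791 genes numbered 2863 in place of 3391.

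**Figure D3:**
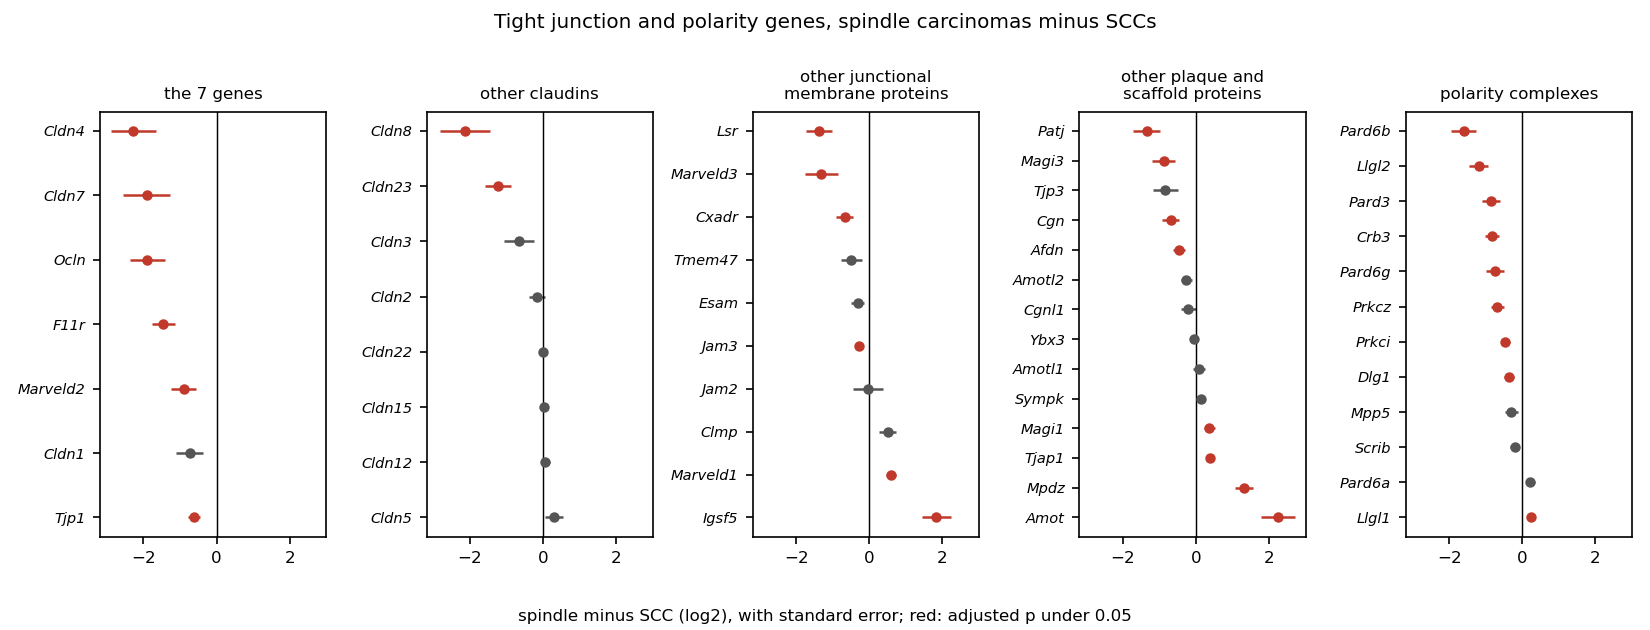
Spindle minus SCC difference of group means (log2, bars are the standard error, 13 and 35 mice) for the 7 genes and 44 related genes, by role. Red points passed the test. All 7 genes lie left of 0, while Igsf5, Amot and Mpdz lie to the right at 1.83, 2.26 and 1.33.

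No tight junction gene passed the test between grades of SCC. Cldn4 averaged 8.63 ± 2.06 in well, 9.94 ± 0.72 in moderately and 9.23 ± 2.02 in poorly differentiated SCCs (SD, n = 13, 13 and 9 mice). The well differentiated group held the lowest values as well as high ones, from 4.66 to 10.73, and all 3 groups overlapped. Moderately minus well differentiated SCCs gave 1.31 for Cldn4 (SE 0.63, limma adjusted p = 1.00) and poorly minus moderately differentiated SCCs gave -0.71 (SE 0.70, adjusted p = 0.749). The most extreme difference of these 3 contrasts by unadjusted p was that of Tjp1 between poorly and moderately differentiated SCCs, with 9.55 ± 0.48 and 10.15 ± 0.35 and a difference of -0.61 (SE 0.20, unadjusted p = 0.00422, adjusted p = 0.575). None of the 7 genes was called in any of the 3 contrasts. In these contrasts 0% of the 12791 genes were called by limma, and 687, 1089 and 318 genes had an unadjusted p under 0.05 for poor minus well, poor minus moderate and moderate minus well.

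For Cldn4 the group means ordered as moderately differentiated SCC (9.94), poorly differentiated SCC (9.23), tumors without histology (9.03), well differentiated SCC (8.63) and spindle carcinomas (6.99). Neighbors in this order differed by less than the larger of their SDs. The order of Ocln was moderately differentiated (7.24), well differentiated (6.52), poorly differentiated SCC (6.16), no histology (5.91) and spindle carcinomas (4.80), and its neighbors also differed by less than the larger SD.

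None passed between p53 labels either. Over all mice Cldn4 averaged 8.74 ± 1.87 in the 14 p53 mutant mice and 8.69 ± 2.22 in the 41 others, a difference of 0.05 (95% interval -1.24 to 1.35, limma adjusted p = 0.988), and 0 of the 7 genes passed where 0.281% of all genes did. Within SCCs all 7 genes had differences below 0, from -0.05 for F11r to -0.95 for Cldn7 (SE 0.81), and none passed, where 0.109% of all genes did. Within spindle carcinomas all 7 differences were above 0 and none passed (0% of all genes by limma, with 638 at an unadjusted p under 0.05). There the 4 p53 mutant mice had Cldn4 at 10.19, 5.32, 10.92 and 7.53, against 4.57 to 10.49 with a median of 5.13 in the 9 mice without a mutation, and the difference was 2.16 (SE 1.31, adjusted p = 0.898). The 2 groups overlapped over most of their range. The interaction of p53 and histology was 2.59 for Cldn4 (SE 1.35, unadjusted p = 0.0618) and 1.56 for Marveld2 (SE 0.74, unadjusted p = 0.0397), with adjusted p of 0.792 for both, and 0% of genes were called by limma, with 797 at an unadjusted p under 0.05.

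Nodal status gave differences of opposite sign in the 2 histologies, none of which passed. Among SCC mice Cldn4 ran from 4.66 to 11.03 with a median of 9.07 in the 10 node-positive mice, against 7.37 to 10.81 with a median of 10.08 in the 14 node-negative mice. The 3 lowest node-positive values, 4.66, 4.85 and 5.53, came from the 3 SCC mice whose tumors all carry tumor_class 1, and no node-negative SCC mouse was below 7.37 after tumors of 1 mouse were averaged. By tumor, the node-negative SCC 22, also of tumor_class 1, had Cldn4 at 5.01, and it was averaged with SCC 23 at 11.29 to a mouse value of 8.15. The difference was -1.67 (SE 0.67, unadjusted p = 0.0192, limma adjusted p = 0.451). Ocln ran from 2.89 to 8.00 with a median of 5.78 in node-positive mice, against 3.98 to 8.53 with a median of 7.37 in node-negative mice, a difference of -1.38 (SE 0.55, adjusted p = 0.451). All 7 genes were lower on average in node-positive SCCs, with a median difference of -1.02, and 4 of them had an unadjusted p under 0.05, as did 1282 of 12791 genes, while 0% of genes were called. The mean of the keratinocyte list was 10.17 ± 2.16 in node-positive and 11.05 ± 0.66 in node-negative SCC mice. The simple epithelium list averaged 7.74 ± 1.28 in node-positive and 9.31 ± 1.04 in node-negative SCC mice, and 2 of its 4 markers had an unadjusted p under 0.05. All 8 endothelial markers were higher on average in node-positive SCC mice, 6 of them with an unadjusted p under 0.05 (list means 7.02 ± 0.70 and 6.47 ± 0.32), and so were all 6 mast cell markers, 5 of them with an unadjusted p under 0.05 (6.90 ± 0.74 and 6.01 ± 0.72). No marker of these lists passed after adjustment, and their part in these differences was not tested.

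In spindle carcinomas the 4 node-positive mice had Cldn4 at 10.19, 10.49, 7.53 and 7.55, against 9.77, 10.92, 4.77, 4.74 and 4.69 in the 5 node-negative mice. By mouse the 3 lowest values were node-negative, and the groups overlapped. The 7.53 is the mean of spindle 8 (4.52) and spindle 9 (10.54), so that by tumor the lowest value of all was node-positive. Cldn4 differed by 1.96 (SE 1.49, limma adjusted p = 0.997) and Ocln by 0.97 (SE 0.64, adjusted p = 0.997), and 0% of genes were called, with 466 at an unadjusted p under 0.05. In the same contrast 5 of 6 mast cell markers were lower with an unadjusted p under 0.05 (list means 5.94 ± 0.12 in node-positive and 7.08 ± 0.61 in node-negative mice), and all 7 neutrophil markers had differences below 0, with a median of -0.82 and list means of 7.57 ± 0.42 in node-positive and 8.62 ± 1.10 in node-negative mice. None passed after adjustment, and their part was not tested. A test of the difference between the histologies gave an interaction of 3.63 for Cldn4 (SE 1.47, 95% interval 0.63 to 6.64, unadjusted p = 0.0192) and 2.34 for Ocln (SE 1.02, unadjusted p = 0.0280). Neither passed after adjustment (0.670 and 0.681), and 0% of genes were called for the interaction, with 936 at an unadjusted p under 0.05. Over both histologies and 34 mice, Cldn4 differed by -0.61 (SE 0.70, adjusted p = 0.932), and again 0% of genes were called, with 533 at an unadjusted p under 0.05.

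**Figure D4:**
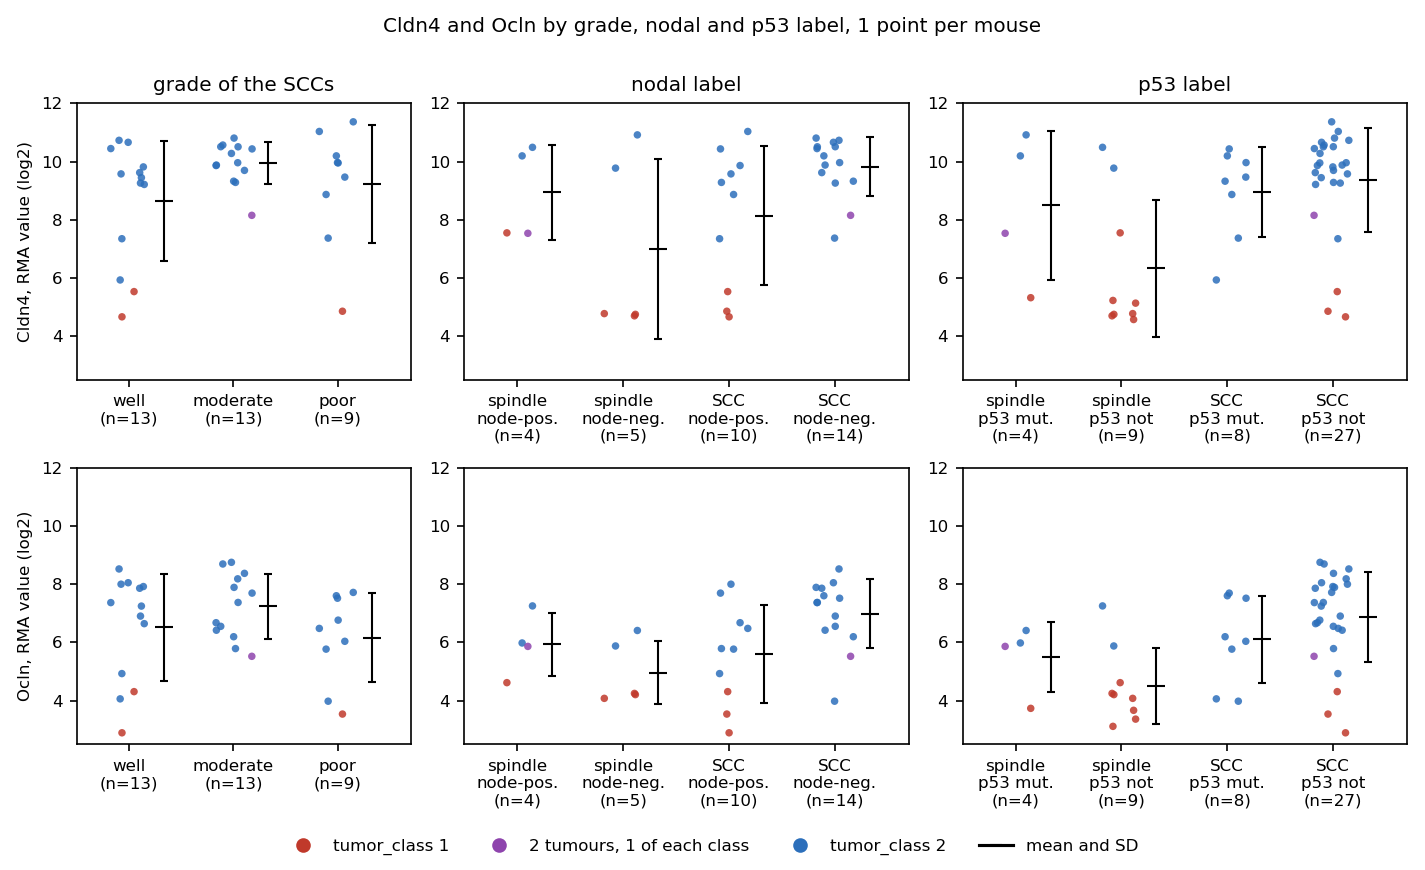
Log2 value of Cldn4 (top) and Ocln (bottom), 1 point per mouse, by grade of the SCCs, by nodal label and by p53 label, with means and SDs in black and the tumor_class label in color. The 3 lowest node-positive SCC mice, at 4.66 to 5.53 for Cldn4, are all of tumor_class 1, while the 3 lowest spindle mice in the nodal panel are node-negative.

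**Figure D5:**
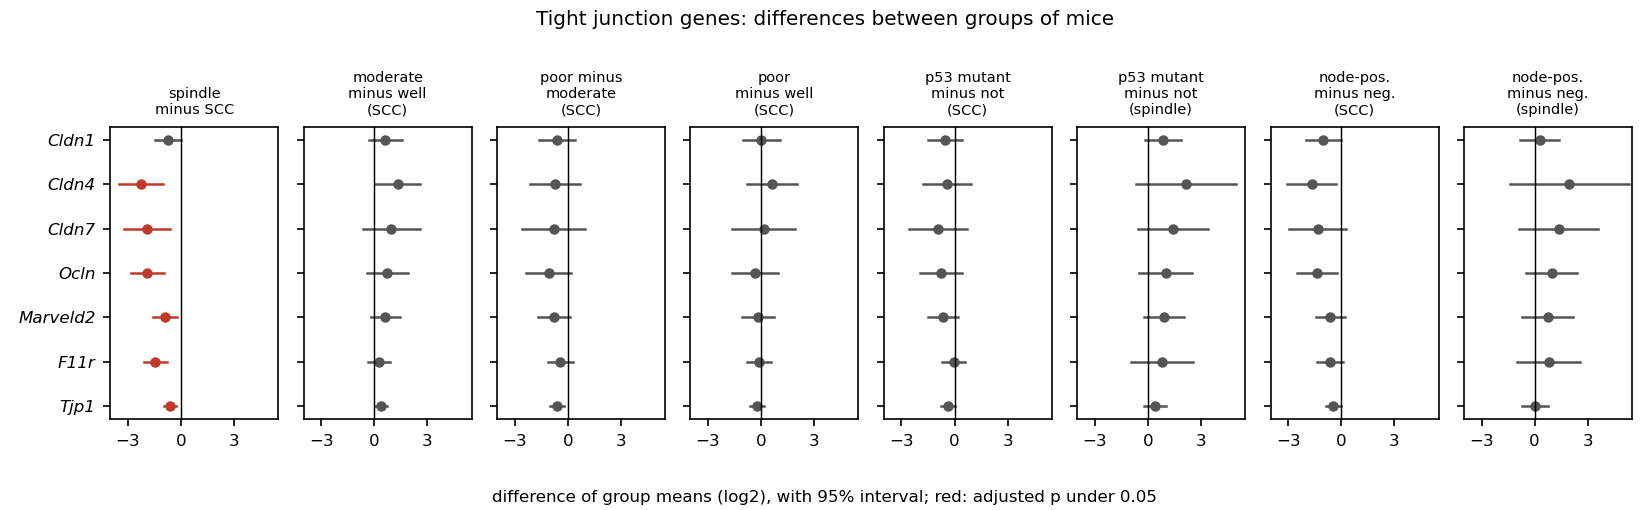
Difference of group means (log2) with its 95% interval for the 7 genes in 8 contrasts, in red where limma's adjusted p was under the threshold of 0.05. Red appears in the spindle minus SCC panel alone, for 6 genes, and Cldn4 has the widest intervals within spindle carcinomas (-0.65 to 4.98 for p53 and -1.38 to 5.30 for nodal status).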

How the data were processed

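RNA of 60 carcinomas was profiled on Affymetrix mouse genome arrays. The deposited values are log2 expression, computed by the authors with RMA, that is, background correction, quantile normalization across the arrays and summary of the probes of a set. A shift of most genes in 1 group would therefore be removed. The RMA version is not given in the sources used here. Precision is limited by the number of arrays, since there are no counts. No deposited column was left without a sample (0 unmapped).

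Of 45101 probe sets, 34958 had a single gene symbol, 932 had several and 9211 had none given, and 34754 of the single symbols matched the RefSeq table of GRCm38.p6. A gene with several probe sets was represented by the brightest on average, which gave 18194 genes, and the 12791 that exceeded the array median on 8 or more arrays were tested. Tumors of 1 mouse were averaged. Groups follow the labels for histology, grade, p53 and nodal status, and the 3 SCC grades shared 1 model. Each contrast was fitted with limma 3.58.1 (lmFit and eBayes, two-sided) in R 4.3.3 with Benjamini-Hochberg adjustment over all genes tested. The study used SAM to compare papillomas of resistant and susceptible animals, which are not compared here, and a SAM-type statistic with 100 permutations was an alternative. Correlations used two-sided permutation tests with 100000 permutations in Python 3.11.15 (scipy 1.17.1), and figures were drawn with matplotlib 3.10.9. The fitting code was tested on simulated data.

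The members, the gene lists and the rule for named genes were chosen with earlier results of these data known. Named genes are the 7 members, up to 4 genes past the threshold by size of difference from each list of related junction genes, and the 3 genes of highest r with each member over SCC mice. Cldn3 and Tjp3 fall outside this rule and were chosen after their values were seen. The fits were repeated without the filter, with a filter of 30 arrays, with every tumor (mouse as random effect), with averaged or with all probe sets, after a second quantile normalization or scaling to 1 upper percentile (75th), with trended robust eBayes, with sex, origin, p53 or grade as covariates, and without sets of arrays.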

Additional observations from a re-analysis of the deposited data

Results flagged for a closer look

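A single mouse stood far from the others of its group in 2 of the 56 sets of values checked, which are the 7 genes in each labelled group of 4 to 10 mice. Such a gap arises by chance in about 1 in 20 sets. F11r in the 8 SCC mice with a p53 mutation was 8.48 in SCC 30, against 9.76 in the nearest of the other mice, and this gap was 0.638 of the whole range. Cldn1 in the 10 node-positive SCC mice was 3.16 in SCC 24, against 5.78 in the nearest mouse, a gap of 0.477 of the range. SCC 24 carries sex markers against its label. SCC 30 is node-negative, poorly differentiated and of tumor_class 2, and it also had low values of Cldn7 (3.68), Ocln (3.98) and Tjp1 (8.53, the lowest SCC mouse).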

How the results depend on the processing

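Of 133 recomputed counts of called genes, 99 belong to comparisons of grade, p53 or nodal status in which no member had passed, and these 99 were 0 again, which says nothing about stability. Of the other 34, all for histology, 31 stayed within 1.5 times the main count. Set against poorly differentiated SCCs alone (22 mice), 0 of the 7 tight junction genes and 0 of the 44 related genes passed in spindle carcinomas, in place of 6 and 25, with fewer mice compared. Without the arrays whose sex markers went against the label, 14 related genes passed. Of 812 recomputed differences of single members, 774 kept their direction and their side of the threshold, 15 lost the call, 2 gained it and 21 changed sign, all of the 21 without a call in either fit. The calls lost were those of Marveld2 and Cldn7 named above and all 6 against poorly differentiated SCCs. Cldn1 passed without SCC 24 (-0.86) and with the SAM-type statistic (false discovery rate 0.0345).

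The signs changed as follows. For poorly minus well differentiated SCCs, Cldn1 was -0.016 with every tumor kept, -0.076 as the mean of its probe sets and -0.62 without the arrays with sex markers against the label, where Cldn4 was -0.22 and Cldn7 -0.49. Without the 4 most alike arrays Ocln was 0.029, F11r 0.19 and Marveld2 0.012 in that contrast, and Marveld2 was 0.13 with p53 as a covariate. For p53 over all mice, F11r was -0.0033 as the mean of its probe sets, -0.0001 after quantile normalization, -0.0025 at a common 75th percentile and -0.026 without the 4 most alike arrays, where Cldn4 was -0.082. F11r within SCCs was 0.079 for p53 with grade as a covariate. For nodal status over all mice, without the arrays with sex markers against the label, Cldn7 was 0.047, F11r 0.11 and Marveld2 0.081. The cause of these changes was not tested. Within spindle carcinomas, 0 of the 7 members passed when each of the 4 p53 mutant mice, or each of the 9 mice with a nodal label, was left out in turn. The other spindle mice were not left out for p53. Over all genes limma called 3 for p53 without spindle 4 (885 at an unadjusted p under 0.05) and 0 in the other removals, with 305 to 681 at an unadjusted p under 0.05. Those removals ranged from 1.36 to 3.22 for Cldn4 by p53, and for nodal status from 1.39 to 2.95 for Cldn4 and from -0.16 to 0.22 for Tjp1, whose value was -0.12 without spindle 2, -0.16 without spindle 10 and -0.11 without spindle 14. Without SCC 24, 7 members and 27 related genes passed for histology.

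No paired analysis was possible, because tumors of the same mouse never differed in histology, grade, p53 or nodal label. Replicate numbers only follow the order of the samples. The fit of every tumor with mouse as a random effect could not be run within spindle carcinomas, where no correlation between tumors of 1 mouse could be estimated, and the interactions were fitted in 1 way only. Removal of the 4 most alike arrays, removal of SCC 24 and the restriction of correlations to tumor_class 2 were chosen after seeing the data. Low probe sets limit Cldn7, Ocln and Marveld2, whose values in many tumors lie at or under the array median, and the 13 spindle mice limit every comparison within that histology. Among the named related genes, Pard6b, Cldn23 and Marveld3 had spindle means of 3.60, 3.87 and 4.28, and Igsf5 an SCC mean of 3.78. These means lie below the array medians, so the size of those differences is uncertain as well.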

Other observations

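The 8 carcinomas of 7 mice without a histology label entered no comparison of histologies. Of these arrays 2 carried tumor_class 1, with Cldn4 at 4.58 and 6.42 and F11r at 8.21 and 8.01, and 6 carried tumor_class 2, with Cldn4 from 8.26 to 10.61 and F11r from 9.65 to 11.02. The mouse with 2 such carcinomas gave 1 of each class, with Cldn4 at 4.58 and 10.61, Ocln at 3.50 and 6.59, Tjp1 at 8.96 and 10.26 and F11r at 8.21 and 10.44. Cldn7 differed less between these tumors, at 3.72 and 4.85.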
